A study of Mus musculus with 6 samples.

Results

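The genes described here are 10 interferon-induced antiviral effectors, Ifit1, Ifit2, Ifit3, Ifit3b, Isg15, Usp18, Mx1, Mx2, Rsad2 and Bst2, out of 54532 genes in the deposited table. They were taken by gene name, each name matched 1 row, and all 10 passed the filter on low counts that left 14246 genes for testing. The genes were selected on their difference between induced and control cells in these same libraries. That difference is therefore given as a description, without a test. The libraries came from immortalized cardiosphere-derived cells (iCDCs) of C57BL/6 mouse heart ventricle, a single line grown out of epicardium and made to divide by a lentiviral human telomerase gene, with puromycin selection, so that every library carries these changes. The 3 control libraries came from iCDCs at passage 30. The 3 induced libraries came from iCDCs of the same passage that had received 10 µM 5-aza (5-azacytidine, an inhibitor of DNA methylation) for 3 days, followed per the labels by 4 weeks in IMDM with 2% serum. The methods of the study describe another medium and a shorter culture after the drug. Routine growth used a medium richer in serum, so drug, serum and time in culture cannot be told apart here. Apart from the lentivirus used to make the line, the labels name no virus or interferon treatment for either group.

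Type I interferons signal through a receptor with the chains IFNAR1 and IFNAR2 to the kinases JAK1 and TYK2, which activate STAT transcription factors. The complex ISGF3, which holds STAT2 and IRF9, binds the interferon-stimulated response element (ISRE) in promoters of interferon-stimulated genes. The 10 genes are classical targets of this factor and act against viruses at different steps: the IFIT proteins bind viral RNA or block its translation, ISG15 is a ubiquitin-like protein that is attached to other proteins, USP18 removes ISG15 and dampens the receptor, the MX proteins are dynamin-like GTPases, RSAD2 (viperin) makes a chain-terminating nucleotide, and BST2 (tetherin) holds budding virions at the cell membrane. In fibroblasts and other cells of the heart most of them are kept low until interferon or foreign nucleic acid is sensed.

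Promoter sequence is shown first, because one short element recurs among the genes. The choice used no sequence, but the genes are classical targets of ISGF3, which binds this element. Its recurrence is therefore no independent result. RefSeq promoters of build GRCm38.p6 were given for 7 of the 10 genes, with no entry for Usp18, Mx1 and Mx2. The ISRE core, spelled GAAANNGAAA and searched on both strands, lay in the 250 bases before the start of 6 of the 7. Over all promoters of this length, 2.98% of 32851 held it, or 3.46% of 27025 genes counted once each. The stretches that hold it are printed below 5′ to 3′ on the strand of the gene, with the bases of the matches in capitals and 20 bases on either side. The Bst2 stretch is chr8:71537567-71537622, on the minus strand, with matches 130 to 121 and 124 to 115 bases before the start. The Ifit1 stretch is chr19:34640765-34640833, on the plus strand, with matches 104 to 95 and 85 to 76 bases before the start. The Ifit3 stretch is chr19:34583353-34583436 and the Ifit3b stretch chr19:34607749-34607832, both on the plus strand. The Isg15 stretch is chr4:156200855-156200916, on the minus strand, where 3 overlapping matches begin 78, 72 and 66 bases before the start. The Rsad2 stretch is chr12:26456543-26456592, on the minus strand, with 1 match 120 to 111 bases before the start.
Bst2: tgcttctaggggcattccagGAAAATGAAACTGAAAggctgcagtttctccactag
Ifit1: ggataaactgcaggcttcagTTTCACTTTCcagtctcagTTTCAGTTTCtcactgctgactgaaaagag
Ifit3: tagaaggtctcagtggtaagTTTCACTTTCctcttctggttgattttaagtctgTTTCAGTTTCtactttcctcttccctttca
Ifit3b: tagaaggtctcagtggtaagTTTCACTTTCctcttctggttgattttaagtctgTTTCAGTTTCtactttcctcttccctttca
Isg15: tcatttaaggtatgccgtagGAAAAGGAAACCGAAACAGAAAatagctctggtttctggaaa
Rsad2: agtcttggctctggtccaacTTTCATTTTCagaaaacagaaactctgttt

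The Ifit3 and Ifit3b stretches are identical letter for letter, and lie 156 to 113 and 188 to 145 bases before their respective starts when read across both matches. Ifit1, Ifit3 and Ifit3b each carry a pair of matches that read TTTCACTTTC and TTTCAGTTTC in the same order. The Bst2 window also held the shorter GAS core TTCNNNGAA, an element bound by STAT dimers, which 7.02% of all promoters contain, and it overlaps the first ISRE match there. Neither of the 2 Ifit2 windows held the ISRE core, and 1 of them held the GAS core. These are matches of letters only. The number of CG dinucleotides, the bases that DNA methylation marks, was 1 in the Ifit3 and in the Ifit3b window, 4 in the Ifit1 and in the Isg15 window, 6 in Rsad2, 8 in Bst2 and 8 and 9 in the Ifit2 windows. The median over all promoters was 6, with quartiles of 2 and 16. Methylation itself was not measured.

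Levels are given as TMM-scaled CPM (counts scaled to the size of the library), which adjust each library's total for its composition, with the mean ± SD over 3 libraries. Total counts were 19041133 to 19823369 per library, and a count of 0 allows up to 0.151 to 0.158 CPM in a library (3 counts, counting error only). The labels name 3 separate samples a group but not separate cultures, so the spread may be technical. The study's methods name 2 biological replicates for each condition, whereas its figure legend for this comparison gives n = 3. Counts of 3 libraries a group were deposited and used. In bulk RNA, more cells expressing a gene and more RNA per cell cannot be told apart.

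All 10 genes were higher in induced cells, and in each of the 10 every induced library lay above every control library. Over all tested genes, 34.1% showed the latter order and 32.6% were called higher at an adjusted p under 0.05 (edgeR quasi-likelihood test), against 32.2% called lower. All 10 genes were among those called higher, which the choice of the genes used. Their log2 fold changes ran from 0.88 to 6.27 with a median of 5.06, where the median of all tested genes was -0.01 and the 95th percentile 1.73. A log2 fold change above 4 was seen for 8 of the 10, and for 188 of all tested genes (1.32%). The exceptions were Ifit2 and Bst2, which were also the only members above 10 CPM in control cells.

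**Figure D1:**
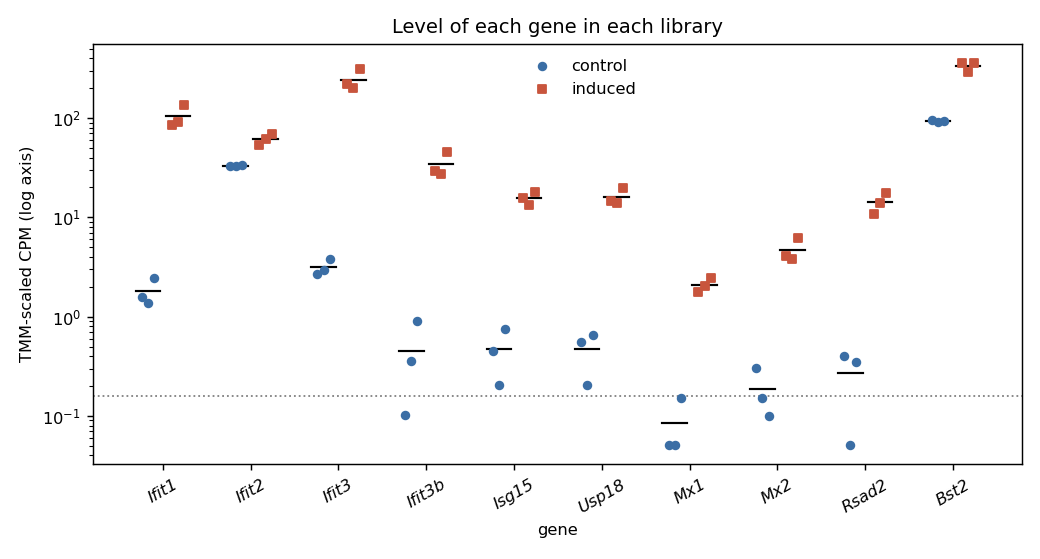
TMM-scaled CPM (log axis) of each gene in each library, with control libraries as circles, induced libraries as squares and a bar at each group's mean (n = 3). The dotted line is the largest level that a count of 0 would allow; Mx1 lay under it in every control library, and no gene's groups overlap.

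The Ifit genes lie together on chromosome 19 (mm10). Ifit3 (ENSMUSG00000074896, chr19:34583531-34588731, plus strand) had 2.69, 2.96 and 3.81 CPM in control libraries 1 to 3, and 223, 200 and 309 CPM in induced libraries 1 to 3. The groups did not overlap, and the mean went from 3.15 ± 0.585 to 244 ± 57.5 CPM, a log2 fold change of 6.27 (SE 0.16). Ifit1 (ENSMUSG00000034459, chr19:34640871-34650009, plus strand), which recognises the 5′ end of foreign RNA, was at 1.57, 1.38 and 2.46 CPM in control and at 85.3, 91.5 and 135 CPM in induced libraries, a log2 fold change of 5.85 (SE 0.20). In both genes induced library 3 was the highest, and libraries 1 and 2 lay close together.

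Ifit3b (ENSMUSG00000062488, chr19:34607970-34613401, plus strand) is a near copy of Ifit3. Its level was 0.101, 0.357 and 0.902 CPM in control and 29.4, 27.4 and 45.7 CPM in induced libraries, a log2 fold change of 6.21 (SE 0.30). The control values rest on 2, 7 and 18 reads and vary more on the log scale than those of any other Ifit gene. Without control library 3 the log2 fold change was 7.19, so its size rests on that library. The coding sequences of Ifit3 and Ifit3b were 99.1% identical over 1209 bases, whereas other pairs of Ifit members shared 60.6% to 66.8% of aligned bases. Of the windows of 100 bases in the Ifit3 transcript, 31.7% also occur in Ifit3b, and 27.4% the other way round, so the split of reads between the 2 genes is uncertain. Ifit3b had 13.2%, 13.7% and 14.8% as many reads as Ifit3 in the 3 induced libraries, and 3.77%, 12.1% and 23.7% in the control libraries. Summed over both genes, the level was 2.79, 3.31 and 4.71 CPM in control and 252, 227 and 355 CPM in induced libraries. The sum does not depend on that split, but it would miss any reads left out for matching both genes, which was not tested.

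Ifit2 (ENSMUSG00000045932, chr19:34550694-34576419, plus strand), whose protein pairs with other IFIT proteins on RNA, behaved otherwise. It was already at 33.1, 33.2 and 33.4 CPM in control libraries and reached 53.2, 61.5 and 69.3 CPM in induced libraries. The groups stayed apart, but the log2 fold change was 0.88 (SE 0.08), the smallest of the 10. The mean thus differed 1.85-fold, against 57.8-fold for Ifit1 and 77.4-fold for Ifit3. Expressed per length, as FPKM (reads per gene length and library size, as deposited), Ifit2 was at 8.38 ± 0.0555 in control, above Ifit3 at 1.79 ± 0.335 and Ifit1 at 0.672 ± 0.216. In induced cells Ifit2 was the lowest of these, with Ifit3 at 139 ± 33.0 FPKM, Ifit1 at 39.1 ± 10.3 and Ifit2 at 15.6 ± 2.05. Ifit3b at 17.1 ± 5.01 FPKM and Ifit2 overlapped in induced libraries.

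Isg15 (ENSMUSG00000035692, chr4:156199424-156200818, minus strand) and Usp18 (ENSMUSG00000030107, chr6:121245906-121270917, plus strand), the modifier and the protease that removes it, had nearly the same size of difference. Isg15 was at 0.456, 0.204 and 0.751 CPM in control and at 15.7, 13.3 and 18.1 CPM in induced libraries, a log2 fold change of 5.04 (SE 0.23). Usp18 was at 0.557, 0.204 and 0.651 CPM in control and at 14.7, 13.99 and 19.7 CPM in induced libraries, a log2 fold change of 5.08 (SE 0.24). In both, control library 2 was the lowest control, with 4 reads of each gene, and the groups were far apart. Per length Isg15 stood higher than Usp18 in induced cells, at 20.7 ± 3.18 against 5.78 ± 1.12 FPKM, since its gene model of 756 bases is shorter. Of the Usp18 exon bases, 4.44% also lie in the overlapping gene Gm44148, and the strand setting of the counting is not given in the sources used here.

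The Mx genes on chromosome 16 were the lowest of the 10 in both groups. Mx1 (ENSMUSG00000000386, chr16:97447035-97462907, minus strand), a nuclear GTPase that is known to be defective in common laboratory strains, had 1, 1 and 3 reads in control libraries and 33, 39 and 47 reads in induced libraries. In CPM this is 0.0507, 0.0510 and 0.150 against 1.75, 2.05 and 2.46, a log2 fold change of 4.53 (SE 0.46). Each control value is at or under the limit that a count of 0 allows, and without control library 3 the log2 fold change was 5.20. Mx2 (ENSMUSG00000023341, chr16:97535308-97560900, plus strand), annotated as a polymorphic pseudogene, had 6, 3 and 2 reads in control and 76, 72 and 118 reads in induced libraries. Its log2 fold change was 4.61 (SE 0.37). The coding sequences of Mx1 and Mx2 were 81.2% identical, but under 2% of their windows of 100 bases were shared (1.25% and 1.72%). Even in induced cells Mx1 stayed at 0.551 ± 0.0941 FPKM and Mx2 at 1.29 ± 0.365 FPKM.

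Rsad2 (ENSMUSG00000020641, chr12:26442746-26456452, minus strand) was at 0.405, 0.0510 and 0.351 CPM in control and at 10.9, 13.9 and 17.8 CPM in induced libraries. The control values correspond to 8, 1 and 7 reads, and the log2 fold change was 5.68 (SE 0.30). Bst2 (ENSMUSG00000046718, chr8:71534255-71537456, minus strand) was the most abundant of the 10 in every library, with 96.5, 90.7 and 92.9 CPM in control and 358, 289 and 355 CPM in induced libraries. The log2 fold change was 1.84 (SE 0.07), or 3.58-fold. Bst2 and Ifit2 thus had the highest control levels and the smallest fold changes, while the genes with under 4 CPM in control differed by 24.9-fold to 77.4-fold.

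The make-up of the group shifted accordingly. The summed level of the 10 genes was 110 to 117 FPKM in control libraries and 523 to 699 FPKM in induced libraries. Bst2 held 88.4% to 90.2% of that sum in control libraries and 56.3% to 64.5% in induced libraries. Ifit3 held 1.30% to 1.88% in control libraries and 20.8% to 25.3% in induced libraries. Above 1 FPKM were 3 of the genes in every control library and 9 in every induced library, Mx1 being the exception.

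**Figure D2:**
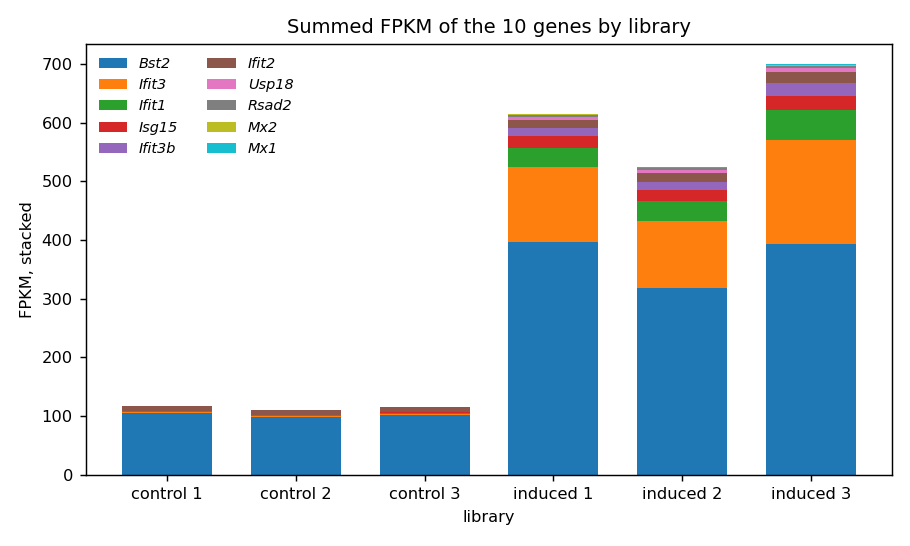
FPKM of the 10 genes stacked for each of the 6 libraries, on a linear axis from 0. Bst2 makes up nearly all of the control sums of 110 to 117 FPKM, and Ifit3 and Ifit1 widen in the induced sums of 523 to 699 FPKM.

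The 3 induced libraries did not carry the effectors at one level. Induced library 3 was the highest for 9 of the 10 genes, and for Bst2 it lay just under induced library 1, at 355 against 358 CPM. On the scale of log2(CPM + 0.5), the median deviation of the 10 genes from their induced mean was -0.17 in library 1, -0.19 in library 2 and 0.32 in library 3. Library 3 exceeded the mean of libraries 1 and 2 by 1.61-fold for Ifit3b, 1.58-fold for Mx2, 1.53-fold for Ifit1, 1.46-fold for Ifit3 and 1.43-fold for Rsad2. The excess was 1.37-fold for Usp18, 1.29-fold for Mx1, 1.25-fold for Isg15, 1.21-fold for Ifit2 and 1.1-fold for Bst2. Induced library 2 was the lowest for 6 genes and induced library 1 for 4 (Ifit1, Ifit2, Mx1 and Rsad2).

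The SD over the induced libraries on that scale ranged from 0.177 for Bst2 to 0.394 for Ifit3b, with a median of 0.293. The median over all tested genes was 0.103, and each of the 10 had an SD above that of at least 76.8% of tested genes. The median was 0.135 for the 34 other interferon pathway genes called higher. For the other 180 genes called with a log2 fold change above 4 it was 0.207, nearer to that of the 10. Counting alone would give an SD of about 0.0181 for Bst2, 0.0212 for Ifit3 and 0.0325 for Ifit1, below the SDs of 0.177, 0.327 and 0.357 that were seen. For Mx1 the counting SD of 0.229 was no smaller than the 0.198 seen. Without induced library 3, the median SD of the 10 genes was 0.118. The 10 genes share these libraries, and their deviations are not independent of one another.

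**Figure D3:**
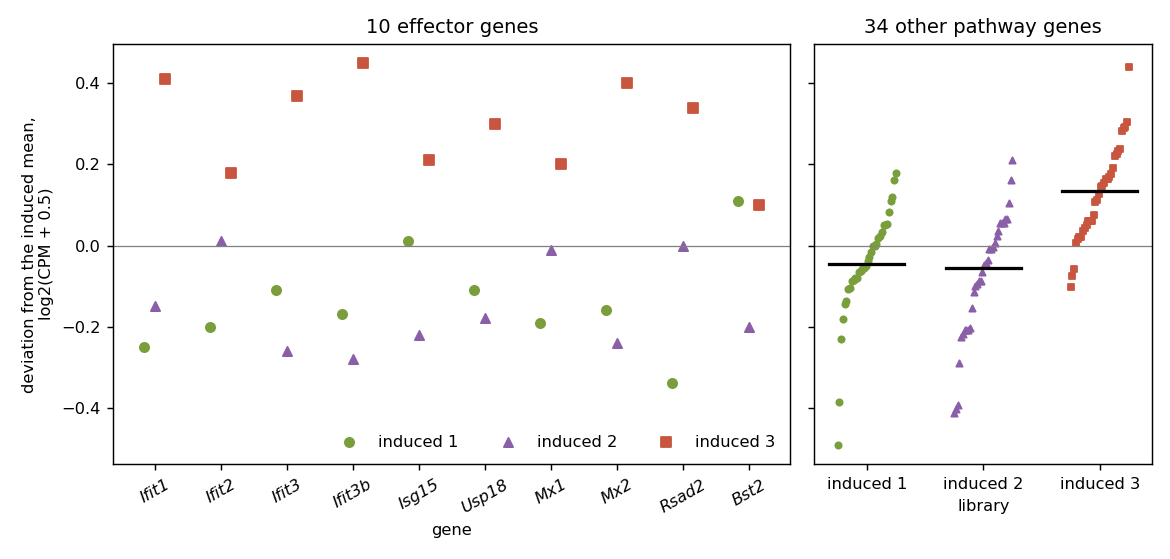
Deviation of each induced library from the mean of the 3, in log2(CPM + 0.5), for each effector gene (left) and for the 34 other pathway genes called higher (right, sorted within a library, bar at the median). Library 3 (squares) is above 0 for all 10 effectors and has a median of 0.14 for the other pathway genes.

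The same library was the highest for 25 of the 34 other interferon pathway genes called higher (73.5%), with median deviations of -0.04, -0.06 and 0.14 in libraries 1 to 3. Among all 56 tested pathway genes it was the highest for 57.1%, with a median deviation of 0.06. Among all genes called higher it was the highest for 25.2%, and among all tested genes for 28.4%. Among the other 180 genes called with a log2 fold change above 4, it was the highest for 37.2%. Gene length moved with the libraries. In the shortest of 10 bins of tested genes by length the median log2 ratio of induced library 2 to library 1 was -0.16, and in the longest it was 0.13. The genes lowest in library 2 include the 2 shortest, Isg15 and Bst2. After each library was centred on the median of tested genes of like length, induced library 3 was still the highest for 9 of the 10 genes and the median SD was 0.271.

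The control libraries varied as well. Control library 3 had the highest control level of 7 of the 10 genes (Ifit1, Ifit2, Ifit3, Ifit3b, Isg15, Usp18 and Mx1), the last with 3 reads against 1 and 1. The lead was small for Ifit2, at 33.4 against 33.2 CPM in control library 2, and for Usp18, with 13 against 11 reads in control library 1. The share over all tested genes was not computed, so this count has nothing to be set against. For Ifit3b the log2 SD was 0.613 in control and 0.394 in induced libraries, and for Bst2 it was 0.0451 and 0.177.

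Of the ligands, 21 interferon genes were looked at and none had enough reads to be tested. They had 3 reads in the control and 5 reads in the induced libraries in all, over 5 genes. Ifnb1 had 2 reads, both in induced library 2. No difference in interferon RNA was detectable at this depth, and interferon earlier in the culture was not measured.

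Of the 6 receptor chains, 4 rose and 2 were not called, with a median log2 fold change of 0.32. Of the 2 chains of the type I receptor, Ifnar2 rose from 68.7 ± 2.41 to 91.7 ± 2.34 CPM (0.42 on the log2 scale, adjusted p 1.56e-06 in edgeR), while Ifnar1 was at 77.9 ± 2.55 and 77.3 ± 3.94 CPM (adjusted p 0.889). The chains of the interferon gamma receptor, Ifngr1 and Ifngr2, rose by 0.56 and 0.53 on the log2 scale (adjusted p in edgeR of 8.93e-08 and 7.27e-08). Il10rb rose by 0.22 (adjusted p 0.0365 in edgeR), a call that was lost with DESeq2 (adjusted p 0.0536) and without control library 1 or induced library 3. It was also lost in edgeR with scaling by library totals alone (adjusted p 0.0805), and at a threshold of 0.01. Ifnlr1 was at a log2 fold change of -0.07 (adjusted p 0.627 in edgeR).

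Of the 5 genes of the relay below the interferon receptors that are reported, 2 rose, 2 fell and 1 was not called. Stat2, a part of ISGF3, rose from 30.5 ± 2.54 to 85.5 ± 7.75 CPM (1.49 on the log2 scale, adjusted p 2.36e-12 in edgeR) and Irf9, which binds DNA in it, from 29.5 ± 1.70 to 53.9 ± 3.98 CPM (0.87, adjusted p 1.94e-09). Both were highest in induced library 3. The kinases went the other way or stayed. Of the kinases named above for the type I receptor, Tyk2 fell from 43.5 ± 1.09 to 34.5 ± 1.02 CPM (adjusted p 7.31e-05 in edgeR). Jak1 was not called at a log2 fold change of -0.10 (adjusted p 0.094). Jak2, which is not one of those kinases, fell from 117 ± 2.79 to 50.7 ± 5.25 CPM (adjusted p 1.19e-11).

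Of the enzymes that attach ISG15, 3 of 4 rose. These were the conjugating enzyme Ube2l6 (0.75 on the log2 scale, adjusted p 9.97e-07 in edgeR), the ligase Herc6 (0.83, adjusted p 0.00175) and Trim25 (0.68, adjusted p 6.80e-09). The activating enzyme Uba7 was at 20.6 ± 2.04 CPM in control cells against 22.4 ± 2.20 CPM in induced cells (adjusted p 0.263). The differences of these enzymes were far smaller than those of Isg15 and Usp18.

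Of the 5 feedback inhibitors other than Usp18, 1 rose, 1 fell and 3 were not called. Socs3, an inhibitor of JAK kinases, fell from 175 ± 6.00 to 80.5 ± 3.02 CPM (-1.12 on the log2 scale, adjusted p 1.39e-12 in edgeR). Pias1 rose by 0.30 on the log2 scale (adjusted p 0.00108). Socs1, which is itself an interferon target, was at 5.78 ± 0.444 CPM in control cells against 4.78 ± 0.641 CPM in induced cells (adjusted p 0.126).

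Of the 10 sensors of nucleic acid and their relay, 6 rose, 2 fell and 2 were not called, with a median log2 fold change of 0.94. Irf7, the factor that drives interferon alpha genes, rose from 2.90 ± 0.181 to 21.4 ± 1.70 CPM (2.88 on the log2 scale, adjusted p 2.45e-13 in edgeR). The sensors of double-stranded RNA Ifih1 and Ddx58 rose by 1.18 and 0.89 on the log2 scale (adjusted p in edgeR of 2.46e-10 and 5.25e-10), and their relative Dhx58 rose by 2.02 (adjusted p 8.21e-10). The DNA sensor Mb21d1 (cGAS) and its adaptor Tmem173 (STING) fell, from 5.43 ± 0.661 to 2.97 ± 0.331 CPM and from 72.5 ± 1.56 to 39.9 ± 2.75 CPM (adjusted p in edgeR of 0.000227 and 3.15e-10).

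Of 26 further antiviral effectors 25 were tested, since Shfl was not found in the table under that name; 17 rose, 5 fell and 3 were not called, with a median log2 fold change of 0.90. Rtp4 rose from 1.28 ± 0.267 to 20.6 ± 3.13 CPM (4.00 on the log2 scale, adjusted p 2.68e-13 in edgeR), and Oasl2, of the 2′-5′ oligoadenylate synthetase family, from 2.65 ± 0.320 to 29.9 ± 5.54 CPM (3.49, adjusted p 2.86e-13). Xaf1 rose by 2.21 on the log2 scale (adjusted p 8.95e-12). Ifi44 had 3 reads in control and 440 in induced libraries, a ratio of 149 with a 95% exact interval of 50.6 to 725 (counting error only). Oas3, singled out after its values were seen, had no read in the control and 104 reads in the induced libraries, at least 35.2-fold higher against a limit of 3 counts over the control group. The genes that fell were Ch25h, which makes the antiviral sterol 25-hydroxycholesterol, Apobec3, Mov10, Samhd1 and Ifitm3. Ch25h fell from 100 ± 3.70 to 19.4 ± 0.628 CPM (-2.37 on the log2 scale, adjusted p 2.74e-16 in edgeR). Apobec3, Mov10 and Samhd1, which act against retroelements or retroviruses, fell by 1.07, 0.87 and 0.42 on the log2 scale (adjusted p in edgeR of 5.48e-11, 3.48e-10 and 3.62e-06). Ifitm3 fell by 0.17 (adjusted p 0.0337 in edgeR), a call that was lost without control library 2 or 3, or without induced library 2. It was also lost with limma on log2(FPKM + 1) and on log2(FPKM + 0.1) (adjusted p 0.171 in both), and at a threshold of 0.01.

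**Figure D4:**
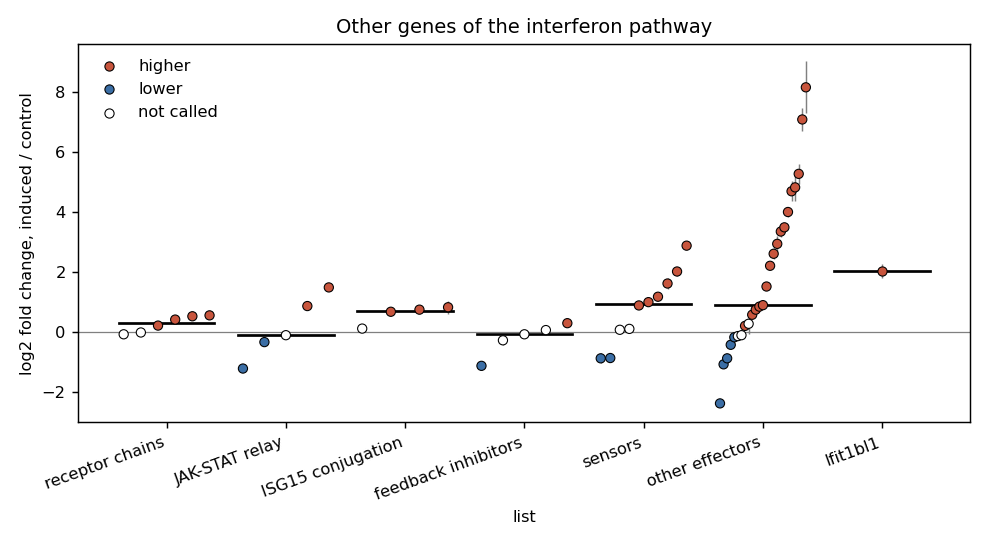
Log2 fold change of induced against control cells (± SE) for tested genes of each pathway list, coloured by the call of the edgeR test, with a bar at the list median. The 2 highest points among the other effectors are Oas3 and Ifi44, which had 0 and 3 control reads, so their fitted values are no measure of size.

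Over the pathway lists together, 34 of 56 tested genes rose and 10 fell, against 32.6% and 32.2% of all tested genes. The median log2 fold change was 0.57, and -0.01 for all tested genes. That of the 10 effectors was 5.06, but they were selected on this difference, so the medians cannot be compared as a result. Within the lists, Oas1a, Oasl1 and Oas2 were at 5.27, 4.82 and 4.69, inside the range of the 10. Their control levels rest on 8, 7 and 12 reads. The lists were written with results of these data known. RefSeq promoters were given for 28 of the 34 that rose, and 5 of these (17.9%) held the ISRE core, as did 1 of 8 that fell and 2 of 11 that were not called.

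The neighbours of the 10 genes on their chromosomes moved in both directions, at shares near those of all tested genes. The 2 nearest tested genes on each side gave 25 genes, of which 10 rose, 10 fell and 5 were not called, beside 32.6% and 32.2% called higher and lower over all tested genes. Some of them lie far off, such as Id2 and Sox11, 1350 and 878 kb from Rsad2, and M6pr and Phc1, 1040 and 1050 kb from Usp18. Their median log2 fold change was -0.15. Within 500 kb of Ifit3, 13 genes were tested, 4 of them members. Inside the cluster, Ifit1bl1, a paralogue that lies 4.16 kb beyond Ifit3, rose from 1.21 ± 0.423 to 4.99 ± 0.756 CPM (2.03 on the log2 scale, adjusted p 5.82e-07 in edgeR). On the Ifit2 side, the lipase gene Lipa, 23.2 kb away, rose by 0.60 (adjusted p 5.15e-09) and Gm26902 fell (log2 fold change -1.22, adjusted p 0.000377). On the other side Pank1 and Kif20b fell, by 0.96 and 1.36 (adjusted p in edgeR of 3.92e-06 and 4.57e-09).

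**Figure D5:**
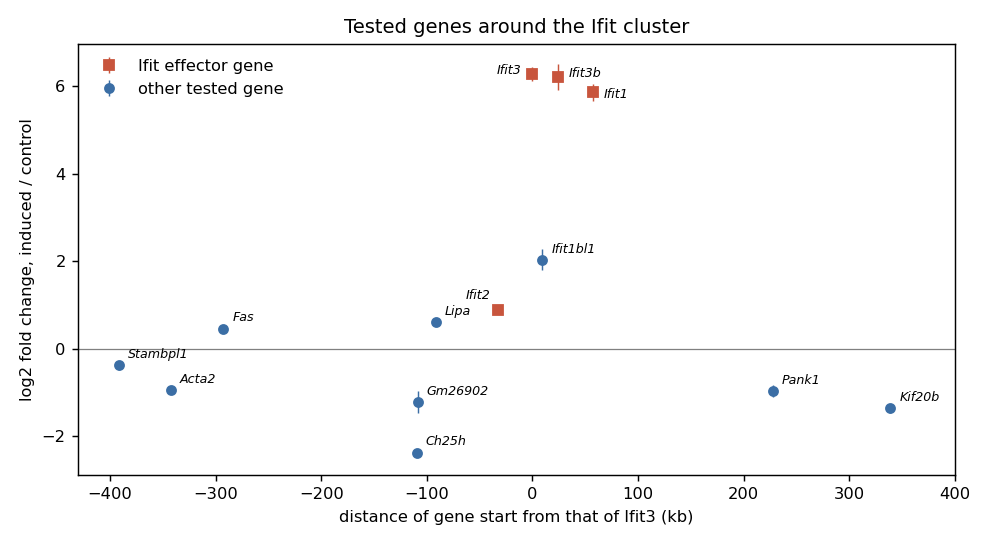
Log2 fold change (± SE) of the 13 tested genes within 500 kb of Ifit3, by the distance of their starts from that of Ifit3. Ifit1, Ifit3 and Ifit3b stand near 6, Ifit1bl1 between them at 2.03 and Ifit2 at 0.88, and of the 9 genes that are not members 3 rose and 6 fell (32.2% of all tested genes fell).

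Next to Rsad2, Cmpk2, a nucleotide kinase and itself an interferon target, rose from 0.927 ± 0.322 to 7.14 ± 2.06 CPM (2.94 on the log2 scale, adjusted p 2.18e-08 in edgeR), while Rnf144a on the other side fell by 1.25 (adjusted p 8.94e-07). Next to Isg15, Agrn, which lies 1.94 kb away, rose by 1.21 (adjusted p 3.44e-13), and the small gene AW011738, 2.49 kb away, was not called (log2 fold change -0.25, adjusted p 0.557). Bace2, 4.10 kb from Mx1, rose by 2.12 (adjusted p 2.07e-10), while Dscam beyond it fell by 2.71 (adjusted p 1.12e-06). On the side of Mx2, Ripk4, 181 kb away, had 1 read in control and 64 reads in induced libraries, a ratio of 65.0 with a 95% exact interval of 11.3 to 2610, and Prdm15 was not called (log2 fold change -0.15, adjusted p 0.193). Tuba8 next to Usp18 fell by 2.39 (adjusted p 2.55e-05). Around Bst2, Mvb12a rose by 0.21 (adjusted p 0.0169), Gtpbp3 fell by 0.77 (adjusted p 9.01e-08), and Plvap was not called (0.07, adjusted p 0.653).

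Genes most like the 10 were ranked by the root mean square difference, over the 6 libraries, between their centred log2(CPM + 0.5) profile and the mean profile of the 10. The nearest were Pramel5 (0.116), Fgf18 (0.141), Nxph1 (0.146), Cd68 (0.152), Krt14 (0.157), Angptl7 (0.16), Ifi44 (0.165), Car9 (0.165), Rarres2 (0.173) and Cys1 (0.174). Only Ifi44 of these stands in a pathway list. Pramel5 had 1 read in control and 325 reads in induced libraries, and Ifi44 had 3 and 440. The 0.5 added to each CPM therefore sets their control level in this ranking. The mean profile also holds the difference on which the 10 genes were selected. The members themselves lay at 0.244 (Usp18) to 1.42 (Ifit2) from their own mean profile, farther than any of these.

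Markers of other cell types were examined beside these values. Of 12 leukocyte markers, Ptprc, Cd52, Tyrobp, Itgam, Adgre1 and Cd3e had 0 reads in all 6 libraries, and Siglech, a marker of plasmacytoid dendritic cells, had 1 read. The summed level of the 12 was 24.8 to 26.9 CPM in control and 37.3 to 44.3 CPM in induced libraries. That sum is nearly all Csf1r, which fell from 22.6 ± 1.05 to 10.9 ± 0.673 CPM, and Cd68, which rose from 1.96 ± 0.217 to 29.2 ± 2.77 CPM (adjusted p in edgeR of 6.30e-09 and 7.41e-15). Without both, it was at most 1.63 CPM in any library. The 6 endothelial markers summed to under 1 CPM, with 0.255 to 0.557 in control and 0.579 to 0.943 in induced libraries, Tie1 being at 0. The 7 mesenchymal markers summed to 19440 to 20210 CPM in control and 18020 to 19430 CPM in induced libraries, mostly from Col1a1, Col1a2 and Vim. Of these 7, Thy1, Eng and Col1a2 were called higher and Ly6a, Col1a1, Pdgfra and Vim lower. The 6 epicardial markers were at 376 to 388 CPM in control and 1235 to 1380 CPM in induced libraries, a sum carried by Upk3b and Msln. Wt1, Tcf21, Upk3b and Msln were called higher, and Tbx18 and Aldh1a2 lower. Of the 6 cardiomyocyte markers, Tnnt2 rose from 13.1 ± 1.62 to 58.2 ± 1.92 CPM (adjusted p 4.90e-14 in edgeR), while Myh6, Myh7, Actc1 and Nppa had at most 6 reads in either group.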

How the data were processed

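RNA of mouse iCDCs was sequenced in 3 control and 3 induced libraries. The authors deposited raw read counts per gene, without normalization, and FPKM values; within a library, dividing a count by the length of the gene and a single depth returns its FPKM, the depths being 18828647 to 20112179 reads. The submitters' processing notes name HISAT2 2.0.5, featureCounts 1.5.0-p3, DESeq2 1.16.1 and build mm10. The strand setting is not given in the sources used here. The fold changes and p-values of the authors and the tables of Gene Ontology terms were not used.

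The tests used edgeR 4.0.16 under R 4.3.3 (filterByExpr with minimum count 10 and minimum total 15, TMM, two-sided quasi-likelihood test, Benjamini-Hochberg adjustment over 14246 genes, threshold 0.05). The SE of a fold change follows from its F statistic, and edgeR's prior count was 0.125. On simulated counts with log2 changes of 1 for this comparison, 91.8% of 195 changed genes were recovered, over 14027 genes, with 13 false calls. Far fewer genes were changed in that simulation than the 9225 called in the data, so these rates may not hold here. Chi-square per degree of freedom between libraries of one group was 2.56 to 8.91, so no pair was merged. Spread was computed on log2(CPM + 0.5).

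The members and lists were chosen with earlier results of these data known. Of the listed pathway genes, 2 are not reported here and stay out of the list counts. The named genes are all 10 members; up to 5 genes per list with the smallest p, and those against the direction of most of the list; the 2 nearest tested genes on each side of each member; and the 10 genes with the most similar profile, taken by rules fixed with the design. Oas1a, Oas2, Oas3 and Oasl1 were named after their values were seen. Not every gene that the rules take is printed. A planned comparison of protein sequences was replaced by coding sequences from GENCODE M21, in which all 10 members have the deposited coordinates. Promoters are from RefSeq (GRCm38.p6). The alternatives tried were a replicate block, leaving out each library, an adjusted p of 0.01, DESeq2 1.42.0, limma 3.58.1 on log2(FPKM + 1) and on log2(FPKM + 0.1), scaling by median-ratio size factors or by library totals alone, a filter that was stricter or absent, windows of 50 and 150 bases, and, added after the data were seen, centring on genes of like length.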

Additional observations from a re-analysis of the deposited data

How the results depend on the processing

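The direction of every member was kept under all alternatives run. The median log2 fold change of the 10 genes, 5.06, was 4.45 with limma on log2(FPKM + 0.1) and 2.26 on log2(FPKM + 1), where a pseudocount larger than the control levels shrinks the difference by construction. Leaving out one library gave 4.70 to 5.47, the extremes coming without control libraries 2 and 3; the control levels of Ifit3b, Isg15, Usp18, Mx1 and Rsad2 rest on 1 to 18 reads a library. Without control library 3, Ifit3b was at 7.19 and Mx1 at 5.20.

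The counts of genes and of list members called stayed within 1.5 times, except that 2 paralogues in place of 1 were tested and called without induced library 1. Of 840 values of pathway genes under the alternatives, 824 kept their call, 11 lost it and 5 gained it, and none that was called changed sign. The losses were all in Ifitm3 and Il10rb. The median SD among induced libraries, 0.293, was 0.118 without induced library 3 and 0.311 and 0.321 without library 2 and library 1. Shared windows of Ifit3 and Ifit3b were 51.2% and 45% at 50 bases and 18.5% and 16% at 150 bases.

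Replicate numbers are shared by the labels of the 2 groups, but same-numbered libraries did not deviate together (correlations -0.0266, -0.0271 and 0.0325), so the numbers were not taken as pairs. With the replicate block, 9063 genes were called in place of 9225, and the median of the 10 genes was 5.07.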
